A study of Mus musculus with 6 samples.

Results

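Superoxide dismutases convert superoxide, the radical that cells form when a single electron leaks or is passed to oxygen, into hydrogen peroxide and oxygen. The 3 dismutase genes of the mouse (Sod1, Sod2 and Sod3) were examined together with Ccs, the gene of the copper chaperone that loads SOD1, in bulk RNA-seq of the vestibular sensory epithelium. These 4 genes, out of 52636 in the deposited table, were taken by gene symbol. They were selected on the IDPN versus Control expression differences measured in these same libraries, so for the 4 genes that contrast is given as a description and carries no test. Every one of the 4 was counted in all 6 libraries and was among the 17650 genes that received an adjusted p-value (Padj).

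Libraries came from male 129S1/SvImJ mice that were 2 to 4 months old when exposure began. The IDPN group (n = 3) drank 3,3'-iminodipropionitrile, a nitrile toxic to the sensory hair cells (HCs), at 30 mM in water for 8 weeks, whereas the Control group (n = 3) drank plain water. One library was made per animal from its pooled utricles and cristae, the organs that sense gravity and head rotation, by a SMART-seq2 protocol without molecular identifiers. The labels place all libraries in 1 batch, but the Control animals' title codes share a stem absent from the IDPN animals, and whatever that stem marks cannot be told apart from the exposure.

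Library totals of estimated counts ran from 40474847 to 43566332 and did not separate the groups (exact permutation p = 0.5, two-sided). The 100 most abundant genes took a mean of 52.0% of counts in Control and 46.4% in IDPN (exact permutation p = 0.1, two-sided, the smallest that 3 against 3 libraries allow). The dissected tissue carried the HC and supporting cell markers looked for, with none of 14 and none of 11 at 0 in all libraries. In bulk tissue, fewer cells of a type and less RNA per cell cannot be told apart.

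The enzymes divide the cell and its surroundings between them. SOD1 uses copper and zinc in the cytosol, SOD2 uses manganese in the mitochondrial matrix, and SOD3 is a copper- and zinc-enzyme that is secreted and held on heparan sulphate and collagen outside the cell through a basic stretch at its C-terminal end. The inner ear is also a main site of NOX3, an NADPH oxidase that makes superoxide and is required for forming otoconia, the crystals that load the gravity-sensing maculae.

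The basic stretch of SOD3 is visible at the end of its coding sequence. The last 25 codons before the stop codon follow for Sod3, Sod2 and Ccs, taken from GENCODE M21 transcripts on GRCm38, with codons for the basic residues arginine and lysine in capitals. Each lies in a single exon.

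Sod3: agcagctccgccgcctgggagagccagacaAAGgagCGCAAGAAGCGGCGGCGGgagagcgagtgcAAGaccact
Sod2: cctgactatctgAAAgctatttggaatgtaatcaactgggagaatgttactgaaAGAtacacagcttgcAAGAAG
Ccs: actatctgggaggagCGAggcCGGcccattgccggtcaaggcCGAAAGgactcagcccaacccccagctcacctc

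The Sod3 tail (chr5:52368639-52368713, + strand) holds 8 basic codons, 6 of them in an unbroken run. Sod2 (chr17:13015094-13015168, + strand) and Ccs (chr19:4825514-4825588, - strand) hold 4 each, with a longest run of 2. A run of at least 6 basic codons within the last 25 was found in 43 of 21569 protein-coding genes (0.199%), each represented by its longest complete coding sequence.

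Sod3 was lower in the IDPN libraries than in the Control libraries by more than any of the other 3 genes. Sod3 (ENSMUSG00000072941.5) spans 52363791 to 52371418 on chromosome 5 and has 1 annotated transcript of 3738 bases. Its normalized count (the estimated count divided by the size factor of the library, given from here on in the order of animals 1, 2 and 3) was 54508, 64869 and 32433 in the Control libraries and 4646, 2828 and 3814 in the IDPN libraries. Control 3 was the lowest Control library, and still held 6.98 times the count of IDPN 1, the highest IDPN library. The group means were 50603 ± 16567 (SD, n = 3) and 3763 ± 910 (SD, n = 3), a log2-Fold_Change of -3.75 (SE 0.24), or 13.4-fold lower in IDPN. The IDPN mean was 7.44% of the Control mean.

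By count, which takes no account of length, Sod3 stood lower in the order of genes in IDPN than in Control. As a share of all counts in a library, Sod3 took 0.106%, 0.133% and 0.0841% in the Control libraries against 0.0135%, 0.00647% and 0.0101% in the IDPN libraries. Only 95 genes had a higher mean normalized count in Control, whereas 1289 did in IDPN. A gene was called when Padj was under 0.05 and the fold change exceeded 1.5. Among the 604 genes called lower in IDPN, 23 had a more negative log2-Fold_Change than Sod3, and the highest Control mean of those 23 was 761. Only 20 of the 604 had a Control mean above that of Sod3.

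Sod1, the cytosolic enzyme (ENSMUSG00000022982.9, chr16:90220754-90226329), had overlapping groups. Its normalized count was 17736, 19636 and 12876 in the Control libraries and 11081, 16617 and 13678 in the IDPN libraries. Control 3 fell inside the IDPN range, and IDPN 1 was the lowest library of all. The means were 16749 ± 3487 and 13792 ± 2769 (SD, n = 3 each). The log2-Fold_Change was -0.28 (SE 0.20).

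Sod2, the mitochondrial enzyme (ENSMUSG00000006818.4, chr17:13006846-13040063), kept nearly equal means. Its normalized count was 4701, 4497 and 3477 in the Control libraries and 4103, 4371 and 4396 in the IDPN libraries. All 3 IDPN libraries lay within the Control range. The means were 4225 ± 656 and 4290 ± 162 (SD, n = 3 each). The log2-Fold_Change was 0.02 (SE 0.17).

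Ccs, the copper chaperone (ENSMUSG00000034108.5, chr19:4825366-4839332, - strand), also had overlapping groups. Its normalized count was 1723, 1928 and 1531 in the Control libraries and 1498, 1975 and 1926 in the IDPN libraries. The lowest and the highest of the 6 values were both IDPN libraries. The means were 1727 ± 198 and 1800 ± 262 (SD, n = 3 each). The log2-Fold_Change was 0.06 (SE 0.18).

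**Figure D1:**
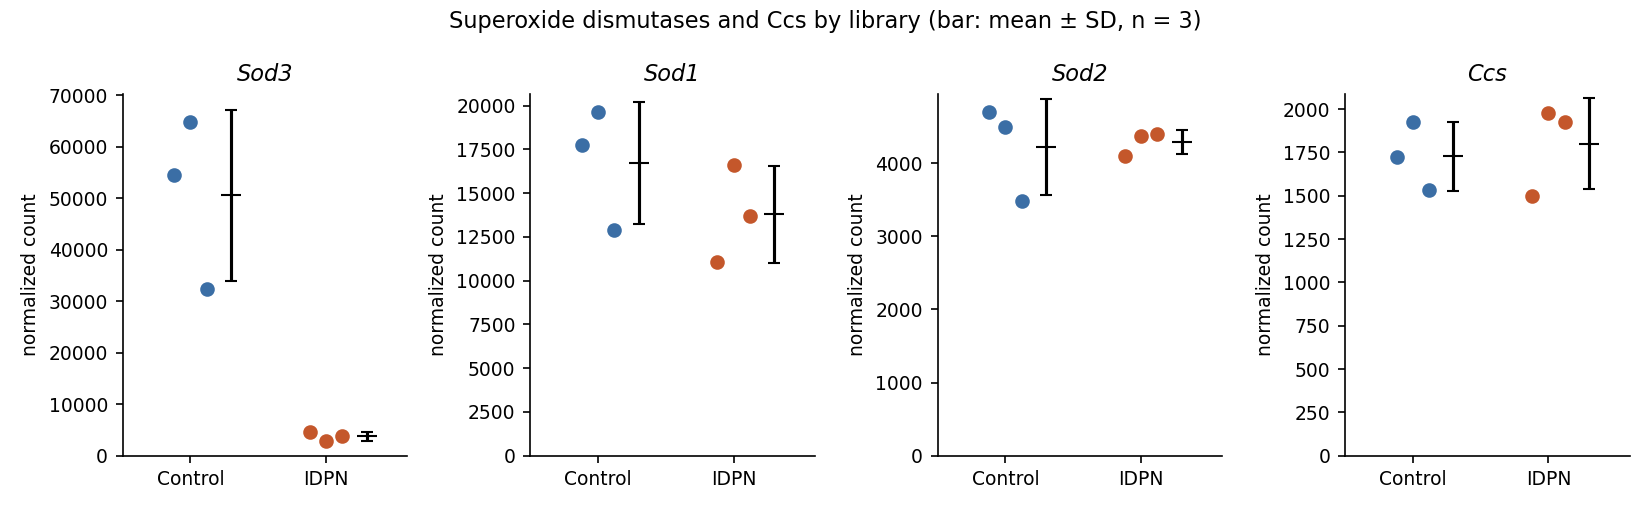
Normalized counts (linear axes from 0, a separate scale for each gene) of Sod3, Sod1, Sod2 and Ccs, with 1 point per library and the mean ± SD (n = 3) beside each group. The Sod3 groups are apart, with 32433 as the lowest Control value and 4646 as the highest IDPN value, while the groups of the other 3 genes overlap.

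Past the call rule was 1 of the 4 genes, Sod3, in the lower direction. Over all genes tested, 5.75% were called in either direction, 3.42% lower and 2.32% higher, and in 22.5% the Control and IDPN libraries did not overlap. Nothing is read from the count for the 4 genes, since the values of this contrast chose them. The median log2-Fold_Change over all genes tested was 0.0152. With size factors set to total counts, the median gene shifted upward by 0.251 on the log2 scale. Sod3 was then at -3.42, Sod1 at -0.02, Sod2 at 0.29 and Ccs at 0.31.

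Ratios within a library do not depend on scaling between libraries. The ratio of Sod3 to Sod1 counts was 3.07, 3.30 and 2.52 in the Control libraries and 0.419, 0.170 and 0.279 in the IDPN libraries. The ratio was above 1 in every Control library and below 1 in every IDPN library, and as a ratio of counts it takes no account of gene length. The ratio of Sod3 to Sod2 counts was 11.6, 14.4 and 9.33 in the Control libraries and 1.13, 0.647 and 0.868 in the IDPN libraries.

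Among the intracellular genes, the ratios overlapped between groups. Sod2 to Sod1 was 0.265, 0.229 and 0.270 in the Control libraries and 0.370, 0.263 and 0.321 in the IDPN libraries. Ccs to Sod1 was 0.0972, 0.0982 and 0.119 in the Control libraries and 0.135, 0.119 and 0.141 in the IDPN libraries. For Ccs to Sod1 the overlap was between Control 3 and IDPN 2 only.

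**Figure D2:**
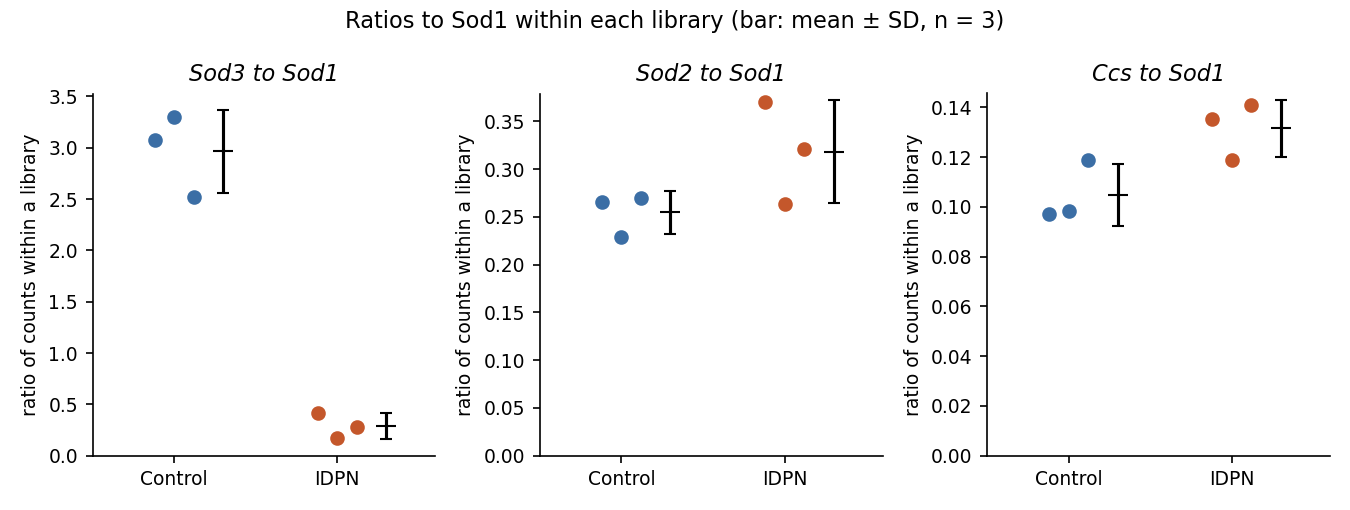
Ratio of the counts of Sod3, Sod2 and Ccs to those of Sod1 within each library (linear axes from 0, 1 point per library, mean ± SD beside each group, n = 3). The Sod3 to Sod1 ratio has a mean of 2.97 in Control and 0.289 in IDPN with no overlap, and the other ratios overlap.

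Levels of different genes can be compared only per length, and the order of the enzymes depended on which length was used. Per kb of merged exons in Control, the normalized count was 13537 ± 4432 for Sod3, 4219 ± 878 for Sod1, 969 ± 111 for Ccs and 422 ± 65.5 for Sod2 (SD, n = 3). No neighbours in that Control order overlapped. The merged exons of Sod1 come to 3970 bases because an annotated transcript keeps introns, whereas the protein-coding transcript has 641 bases. Per kb of the longest protein-coding transcript, Sod1 was first in Control at 26130 ± 5439, ahead of Sod3 at an unchanged 13537, with the lowest Sod1 library (20087) above the highest Sod3 library (17354).

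In IDPN, Sod1 led under both lengths and the order of the others was not firm. Per kb of merged exons, Sod1 was at 3474 ± 698, Ccs at 1010 ± 147, Sod3 at 1007 ± 243 and Sod2 at 429 ± 16.2 (SD, n = 3), and Ccs and Sod3 could not be ordered, with libraries from 841 to 1108 and from 757 to 1243. Per kb of the longest protein-coding transcript, Ccs lay at 1404 to 1851, above every Sod3 value, and Sod2 at 700 to 750, just below the lowest Sod3 value. Sod3 as a share of the 3 dismutases per kb went from 73.9% ± 2.86 in Control to 20.9% ± 6.95 in IDPN by merged exons, and from 33.0% ± 3.11 to 4.55% ± 1.86 by the coding transcript (SD, n = 3 each).

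**Figure D3:**
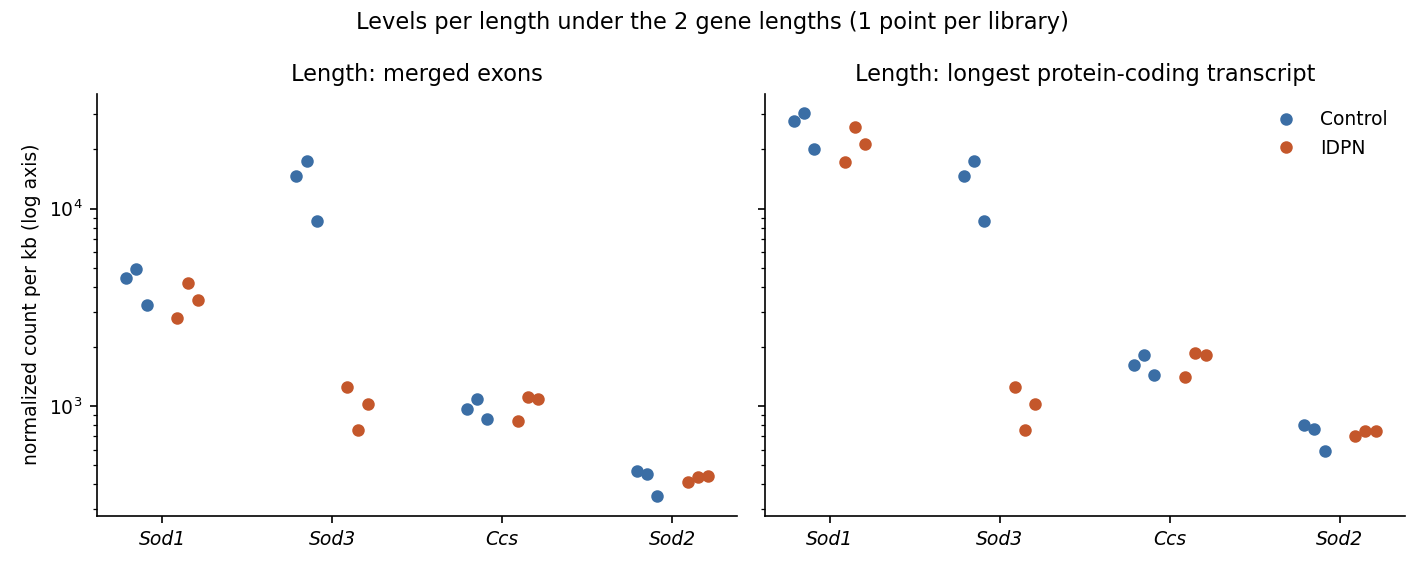
Normalized count per kb (log axis) of the 4 genes in each library, by merged exons on the left and by the longest protein-coding transcript on the right. Sod3 is the highest gene in Control on the left and second to Sod1 on the right, and in IDPN it sits between 757 and 1243 on both.

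The reads behind these values were not equally easy to assign. No exon of a member overlapped an exon of another gene, and no member shared a run of 30 or more identical bases with another member. Sod3 shared no run as long as a 76-base read with any other gene, the longest being 39 bases, and Ccs shared none of 30 bases. A processed pseudogene, Gm8566, holds 122 bases identical to Sod1, but its own normalized count was between 17.4 and 31.5. Sod2 shared runs of at least 76 bases with 50 other genes, the longest of 352 bases, so the division of reads is least certain for Sod2.

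The genes flanking Sod3 did not pass the call rule. Ccdc149 begins 3233 bases beyond Sod3 on the opposite strand, and its normalized count was 107.8 ± 11.5 in Control and 102.8 ± 33.5 in IDPN (SD, n = 3; log2-Fold_Change -0.07, DESeq2 Padj = 0.956). Lgi2, the next protein-coding gene on that side, had essentially no counts. On the other side the nearest protein-coding gene, Dhx15, an RNA helicase of splicing, had a log2-Fold_Change of -0.14 (DESeq2 Padj = 0.734). Scaf4 overlaps the Sod1 gene body on the opposite strand without sharing exons, at 611.5 in Control and 693 in IDPN.

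Genes that make superoxide, remove peroxide, supply metals, hold Sod3 in the matrix or regulate these enzymes were then counted from 5 lists totalling 81 genes. The lists were chosen with earlier results of these data known, so their shares are a description and not a test. Of 74 tested, 5 were called lower and 0 higher by DESeq2, or 6.76%. Over all genes tested 5.75% were called, 3.42% lower and 2.32% higher. Control and IDPN libraries were fully apart for 20 of these 74 genes (27.0%), against 22.5% of all genes. At an unadjusted DESeq2 p under 0.05 there were 9 lower and 6 higher, with no share of all genes given at that threshold. Nothing is read from these unadjusted counts. With edgeR, 3 were called lower (Gpc5, Gpc6 and Sdc2) and 0 higher, against 357 lower and 166 higher over all genes.

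The lists' medians lay on both sides of the median of 0.0152 for all genes. The calls below stand beside 3.42% of all genes called lower and 2.32% higher. Those shares do not apply to the counts at an unadjusted p, from which nothing is read. Among superoxide sources 1 of 15 tested was called lower (1 lower and 1 higher at an unadjusted DESeq2 p under 0.05), with a median log2-Fold_Change of 0.16. Peroxide removal had 1 of 13 called lower (3 lower and 0 higher at an unadjusted p under 0.05) with a median of -0.19. Metal supply had 0 of 13 called (1 lower and 1 higher at an unadjusted p under 0.05) with a median of 0.09. Sod3 matrix partners had 3 of 20 called lower (3 lower and 4 higher at an unadjusted p under 0.05) with a median of 0.17. Regulators had 0 of 13 called (1 lower at an unadjusted p under 0.05) with a median of 0.07.

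**Figure D4:**
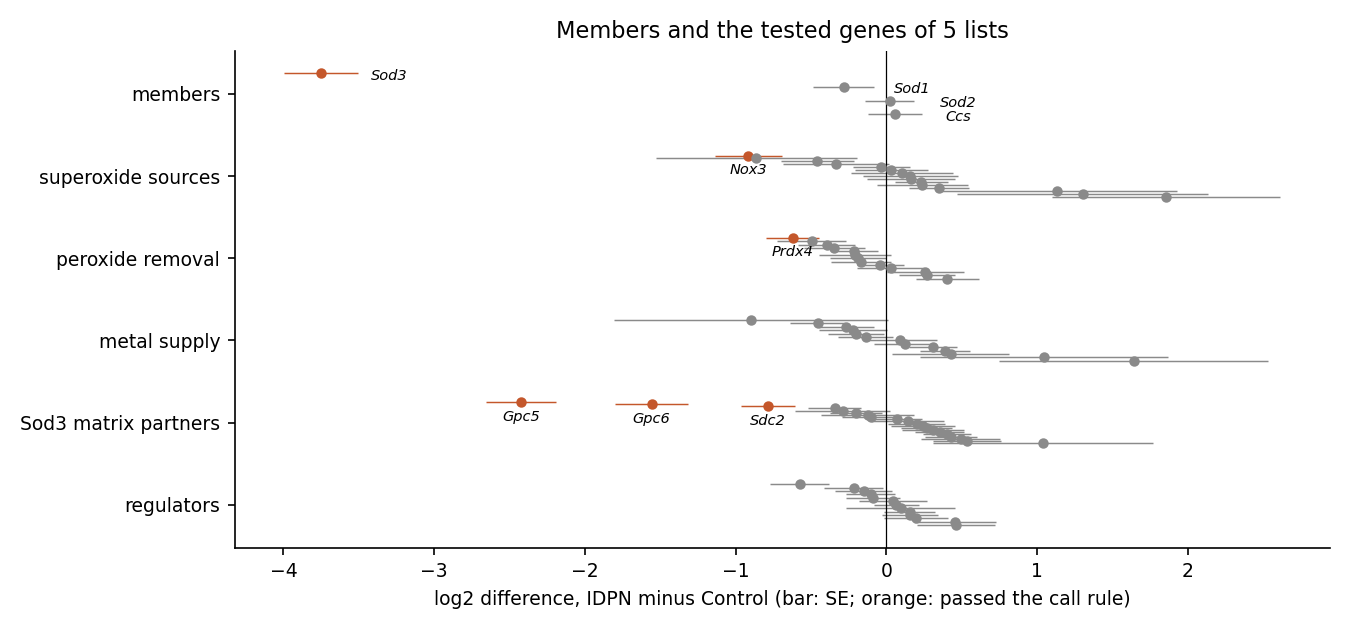
The log2 difference of IDPN minus Control (horizontal axis, bar for SE) of the 4 members and of the 74 tested genes of 5 lists, in orange where the gene passed the call rule. Sod3 lies at -3.75, farther left than every list gene, and the called list genes are Gpc5, Gpc6, Sdc2, Nox3 and Prdx4.

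Of the 20 matrix partners tested, those called were Gpc5, Gpc6 and Sdc2. Gpc5, a heparan sulphate proteoglycan anchored to the cell surface as a glypican (ENSMUSG00000022112.14, chr14:115092215-116525179), had normalized counts of 549, 473 and 685 in the Control libraries and 115, 104 and 98.9 in the IDPN libraries. The groups were far apart. Its mean went from 569 ± 107 to 106 ± 8.19 (SD, n = 3), a fall whose log2-Fold_Change was -2.42 (SE 0.23, DESeq2 Padj = 5.34e-23, edgeR adjusted p = 0.000365).

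Gpc6, the neighbouring glypican gene on the same strand (ENSMUSG00000058571.10, chr14:116925315-117976544), had 452, 413 and 609 in the Control libraries and 182, 134 and 186 in the IDPN libraries. Its means were 491 ± 103 and 167 ± 29.1 (SD, n = 3), a fall whose log2-Fold_Change was -1.56 (SE 0.24, DESeq2 Padj = 1.85e-08). Gpc5 and Gpc6 kept their calls under every alternative run. The other glypicans Gpc1, Gpc2, Gpc3 and Gpc4 did not pass.

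Sdc2, a transmembrane syndecan that carries heparan sulphate (ENSMUSG00000022261.5), also passed. Its normalized count was 10628, 9584 and 6994 in the Control libraries and 5120, 5219 and 5430 in the IDPN libraries. Each Control library was above each IDPN library, and the mean fell from 9068 ± 1871 to 5256 ± 158 (SD, n = 3; log2-Fold_Change -0.79, SE 0.18, DESeq2 Padj = 0.000585). The call was lost with total-count size factors (-0.50, DESeq2 Padj = 0.114).

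Basement membrane proteoglycans of the same list did not pass, and their IDPN libraries were all above their Control libraries. The means were 210 and 305 for Hspg2 (DESeq2 Padj = 0.164), 833 and 1065 for Agrn (DESeq2 Padj = 0.219), and 1536 and 2035 for Col18a1 (DESeq2 Padj = 0.120).

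Other proteins that bind or process SOD3 did not pass. Fbln5, fibulin-5, which tethers SOD3 in the vessel wall, had means of 2654 and 2309 (DESeq2 Padj = 0.641). Furin, a protease reported to cut the basic tail, had means of 346 and 429 (DESeq2 Padj = 0.481). Each IDPN library of Furin was above each Control library, but IDPN 1 at 370.8 and Control 2 at 370.5 nearly met.

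The inner-ear oxidase Nox3 (ENSMUSG00000023802.4, chr17:3635240-3696261, - strand) was the superoxide source that was called. Its normalized count was 26263, 26563 and 16910 in the Control libraries and 15901, 9722 and 11386 in the IDPN libraries. The groups did not overlap, but Control 3 and IDPN 1 nearly met. The mean was 23245 ± 5488 in Control and 12336 ± 3197 in IDPN (SD, n = 3; log2-Fold_Change -0.91, SE 0.22, DESeq2 Padj = 0.00155). This call depended on the method and on 1 library, since it was lost with edgeR (adjusted p = 0.0844), with total-count size factors (-0.60, DESeq2 Padj = 0.172) and without Control 2 (-0.81, DESeq2 Padj = 0.0607).

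The partner subunits of NOX3 did not pass. Cyba, the membrane subunit, had means of 1346 and 1315 (DESeq2 Padj = 0.964). Noxo1, the organizer subunit, had means of 1106 and 1300, with each IDPN library above each Control library (DESeq2 Padj = 0.560).

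Among enzymes that remove the peroxide made by dismutases, only Prdx4 was called. Prdx4 encodes a peroxiredoxin of the secretory pathway (ENSMUSG00000025289.15). Its normalized count was 4447, 4531 and 3465 in the Control libraries and 2348, 2951 and 2791 in the IDPN libraries, with no overlap. The mean was 4148 ± 593 in Control and 2697 ± 312 in IDPN (SD, n = 3; log2-Fold_Change -0.62, SE 0.17, DESeq2 Padj = 0.00933). The call was lost with edgeR (adjusted p = 0.0685), with total-count size factors (-0.36, DESeq2 Padj = 0.271), and without Control 1 (Padj = 0.0818), Control 2 (Padj = 0.106) or IDPN 1 (Padj = 0.0985).

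Catalase and the secreted glutathione peroxidase gave higher IDPN means that did not pass. Of the 13 peroxide removal genes tested, 4 had a higher and 9 a lower estimate in IDPN. Cat had means of 3668 and 4425 (DESeq2 Padj = 0.513). Gpx3 had means of 38773 and 51375 (DESeq2 Padj = 0.303), and was called higher with total-count size factors (0.68, DESeq2 Padj = 0.0294). In the other direction, Gpx2 had means of 21108 and 14977 (DESeq2 Padj = 0.225), and Prdx2 of 18461 and 14047 (DESeq2 Padj = 0.244).

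**Figure D5:**
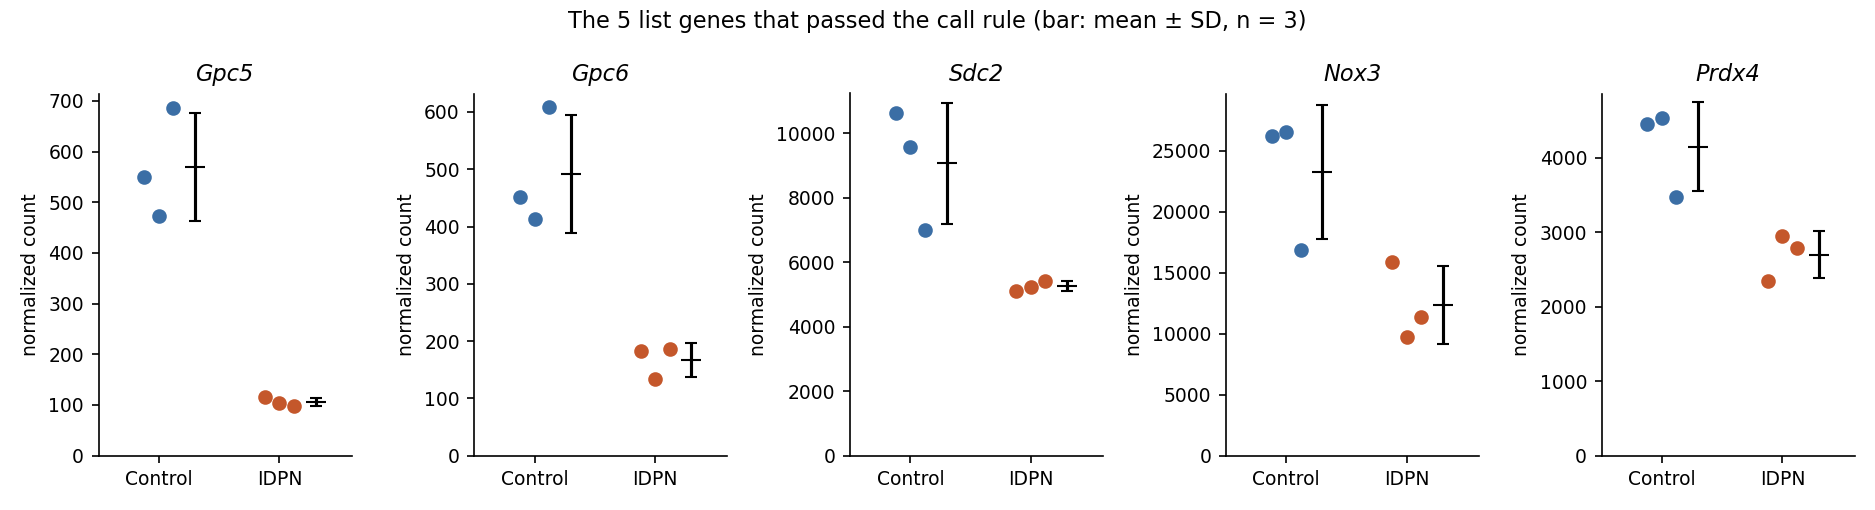
Normalized counts (linear axes from 0, a separate scale for each gene) of the 5 called list genes, with 1 point per library and the mean ± SD (n = 3) beside each group. Gpc5 and Gpc6 show wide gaps, while Control 3 at 16910 and IDPN 1 at 15901 nearly meet for Nox3.

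Copper delivery showed no called gene, and of the 13 metal supply genes tested, 7 had a higher and 6 a lower estimate. Slc31a1, the high-affinity copper importer, had means of 1561 and 2046, with each IDPN library above each Control library (DESeq2 Padj = 0.156), and it was called higher with total-count size factors (0.64, DESeq2 Padj = 0.0422). Cox17, of the same list, had means of 1014 and 740, with each IDPN library below each Control library (DESeq2 Padj = 0.123). Atox1, which passes copper to the secretory pathway, had means of 658 and 564 (DESeq2 Padj = 0.711). Atp7a, the pump that loads copper into secreted enzymes, had means of 685 and 729 (DESeq2 Padj = 0.917). Of the regulators, Hif1a came nearest to the rule, with means of 21288 and 14299 and a DESeq2 Padj of 0.0488, but its log2-Fold_Change of -0.57 did not reach the fold threshold.

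Each member's closest companions were found by Pearson correlation of log2(normalized count + 1) over the 6 libraries among 11769 genes whose mean normalized count reached 100 or more. The 6 points are shared by all genes and fall into the 2 groups, so r is given as a description without a test. For Sod3 the 5 closest were Luzp2 (r = 0.999), Smoc2 (0.997), A730017C20Rik (0.996), Plxdc2 (0.996) and Tmem167 (0.995). Their differences were smaller than that of Sod3. Smoc2, a secreted matricellular protein, had means of 5416 ± 1139 in Control and 1376 ± 282 in IDPN (SD, n = 3; log2-Fold_Change -1.98), and Luzp2 had means of 690 and 514.

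The other members tracked different genes. For Sod1 they were Psmb4, Rpl36al, Tpt1, Nr1h2 and Gosr2 (r from 0.995 to 0.990), of which Psmb4 is a proteasome subunit and Rpl36al a ribosomal protein. For Sod2 they were Fech, Fh1, Cd81, Abhd8 and Gstp2 (r from 0.994 to 0.983). Fech (ferrochelatase) and Fh1 (fumarase) encode mitochondrial enzymes, but a shared location of the genes closest to Sod2 was not tested. For Ccs they were Odf2, Hax1, Gcc2, Gpsm2 and Tceal9 (r from 0.986 to 0.970).

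Markers of other cell types are given beside Sod3, against 3.42% of all genes called lower and 2.32% higher. Those shares do not apply to the counts at an unadjusted p, here or in the next paragraph, and nothing is read from those counts. These lists too were chosen with earlier results of these data known. For HCs, 8 of 14 markers were called lower, and the summed normalized count ranged from 791667 to 1039900 in Control and from 582225 to 784093 in IDPN. Spp1 made up 96.7% of that sum, and was not called (DESeq2 Padj = 0.0502). Without Spp1, the HC sum ranged from 29702 to 33660 in Control and from 20749 to 21179 in IDPN. For neurons, 3 of 6 tested were called lower, with sums of 4975 to 5216 and 3119 to 3418. Nefl, which was called, made up 61.1% of the neuron sum. Without Nefl the neuron sum ranged from 2004 to 2082 in Control and from 1072 to 1416 in IDPN. For supporting cells, 1 of 11 was called lower (5 lower and 0 higher at an unadjusted DESeq2 p under 0.05), with sums of 359179 to 505880 and 255672 to 313081. Melanocyte markers, with sums of 6694 to 14851 in Control and 15018 to 22925 in IDPN, had 0 of 8 called (4 higher at an unadjusted DESeq2 p under 0.05). Dct made up 55.7% of that sum and was not called (DESeq2 Padj = 0.547). Without Dct the melanocyte sum ranged from 3599 to 6497 in Control and from 6501 to 9946 in IDPN, so the groups nearly met. With edgeR, the calls were 7 for HCs, 2 for neurons, 0 for supporting cells and 0 for melanocytes. Over all genes edgeR called fewer than DESeq2, at 357 lower and 166 higher against 604 and 410. No marker of these lists was at 0 in all libraries, and the part of these cells in the Sod3 difference was not tested.

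For the remaining 7 cell types the summed markers overlapped between groups. Vascular smooth muscle and pericytes, cells known to make SOD3 in other tissues, had 0 of 8 markers called (1 higher at an unadjusted DESeq2 p under 0.05, 0 called by edgeR) and sums of 8510 to 12326 in Control and 10207 to 12284 in IDPN. Rgs5 made up 84.6% of that sum, which without Rgs5 ranged from 1510 to 1794 in Control and from 1689 to 1725 in IDPN. Endothelium had 1 of 7 called lower, and stroma, with Coch making up 98.2% of its sum, had 1 of 10 called higher and 1 lower. Macrophages had 0 of 10 called (4 higher at an unadjusted DESeq2 p under 0.05, 0 called by edgeR), dark and transitional cells 1 of 8 higher, and Schwann cells 1 of 8 higher. Erythroid markers, from blood, had 4 of 5 called higher (0 with edgeR), with sums of 16167 to 36635 in Control and 34689 to 49091 in IDPN.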

How the data were processed

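Per the methods and the submitters' processing notes, the authors aligned the 76-base paired reads to GRCm38 with STAR 2.5.3a and estimated gene counts with RSEM 2.3.0 on GENCODE M15. The deposited values are expected counts, given as whole numbers without normalization. RSEM divides reads that match several genes. Replicate numbers follow the order of the samples, and depth is given with the results. Errors that come from counting alone understate the true error, since no molecular identifiers were used.

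All 52636 genes were fitted with DESeq2 1.42.0 (R 4.3.3; Wald test, no covariate, Benjamini-Hochberg adjustment), with calls at an adjusted p under 0.05 and a fold change over 1.5. The edgeR quasi-likelihood test (edgeR 4.0.16), total-count and TMM size factors, a filter of at least 10 counts in 3 samples, and leaving out each library were alternatives. The code was tested on simulated data. Lengths, coordinates and coding tails came from GENCODE M21; the length of the longest protein-coding transcript was added after seeing the data.

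The members and lists were chosen with earlier results of these data known. Named genes were the 4 members, list genes that were called or whose role bears on a member, the 5 genes most correlated with each member, and genes that overlap a member or flank Sod3. The 11 marker lists are given by cell type and size. Those with non-overlapping sums are named here. HC markers were Pou4f3, Gfi1, Atoh1, Myo6, Myo7a, Otof, Tmc1, Calb2, Ocm, Lhfpl5, Cdh23, Espn, Slc17a8 and Spp1. Supporting cell markers were Sox2, Otoa, Tecta, Tectb, Otog, Otogl, Gjb2, Gjb6, Lfng, Hes1 and Slc1a3. Neuron markers were Nefl, Nefm, Nefh, Snap25, Rbfox3, Tubb3 and Stmn2. Melanocyte markers were Dct, Tyr, Tyrp1, Mitf, Pmel, Mlana, Slc45a2 and Oca2. Protein sequences were not used here, and the coding tail of Sod1 is not reported here.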

Additional observations from a re-analysis of the deposited data

How the results depend on the processing

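The Sod3 difference stayed between -3.99 and -3.42 (log2) whether edgeR, other size factors, the filter on low counts or any set of 5 libraries was used. For Sod1, Sod2 and Ccs the alternatives moved the difference by less than the spread between replicates, except with total-count size factors, which shift the median gene by 0.251 and gave Sod2 0.294 and Ccs 0.310. Sod1 moved within that spread, to -0.0225 with total-count size factors. With edgeR, 166 genes were called higher and 357 lower (410 and 604 with DESeq2), and with total-count size factors 609 and 214. Leaving out 1 library gave 234 to 611 higher. Of superoxide sources, 0 were called lower with edgeR or total-count size factors, and leaving out 1 library gave 0 to 1 lower and 0 to 1 higher. Of peroxide removal, 0 were called lower with edgeR or total-count size factors, and leaving out 1 library gave 0 to 2 lower. With total-count size factors, 1 gene each of peroxide removal, metal supply and Sod3 matrix partners was called higher. Leaving out 1 library gave 0 to 1 regulators lower. Scaling by total counts per kb, in place of size factors, exchanged Sod3 and Ccs in the IDPN order. No paired analysis was run, since each library came from a different animal and the labels record no pairs.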

Other observations

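The metallothioneins Mt1 and Mt2, which bind copper and zinc, were high in 1 IDPN library. Mt1 had normalized counts of 2640, 4014 and 2550 in the Control libraries and 2354, 13273 and 3393 in the IDPN libraries. Mt2 had 263, 488 and 285 in the Control libraries and 353, 2433 and 447 in the IDPN libraries. Neither gene was called (DESeq2 Padj = 0.584 and 0.339). IDPN 2, the library with the high values, was also the one with the lowest Sod3 (2828) and Nox3 (9722). It stood apart from IDPN 1 and IDPN 3 for other genes too, at 120865 against 60547 and 70470 for Sdc4, and 3697 against 902 and 793 for Egr2. A link between these values was not tested. Rac1, a small GTPase that activates several NADPH oxidases, spread more widely within Control than the group means were apart, at 1212, 5933 and 10912 in the Control libraries against 12409, 14004 and 13118 in the IDPN libraries (DESeq2 Padj = 0.520). These genes were singled out after their values were seen.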
